A study of Mus musculus with 474 samples.

Results

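The genes described here encode 10 enzymes of glycolysis, Pfkm, Aldoa, Ldha, Ldhb, Pkm, Eno3, Gapdh, Pgam2, Tpi1 and Gpi1. They were chosen by gene symbol among the 20612 genes of the deposited tables, and all 10 were found once in the table of counts and once in the table of transformed values. Skeletal muscle RNA of Diversity Outbred (DO) mice was measured by RNA-seq, with 1 library per animal. DO mice are an outbred stock bred from 8 inbred founder strains, so each animal is genetically distinct. All animals received a high-fat, high-sugar diet from 4 weeks of age and were harvested at 22 weeks, so no comparison of diets was possible. The muscle is named gastrocnemius in the study's methods, where polyadenylated RNA was selected and sequenced as pairs of 100-base reads.

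The groups are the sexes and a number in each library's title (17, 18, 19, 21 or 23), which was read here as the generation of the outbred stock, a reading that is an assumption for those numbers the study does not name. Generation 17 held 48 females and 46 males, generation 18 held 45 and 48, generation 19 held 49 and 50, generation 21 held 46 and 47, and generation 23 held 47 and 48. The total expected count per library ranged from 35.9 to 165.7 M (mega) with a median of 79.3 M. Levels are in CPM, the counts of a gene per M counts of its library, on library totals scaled by the trimmed mean of M-values (TMM). Library numbers in the titles run in 5 blocks of at most 96, which the labels do not name as a batch, and the sex differences, correlations and myosin slopes were also computed within blocks. In 5 libraries the RNA of sex-linked genes went against the labelled sex. Leaving these libraries out left the same members called between the sexes and for each myosin. The labelled tissue was checked on fibre genes: all 12 fast-fibre and all 9 slow-fibre markers were detected in every library. The fast-fibre markers together took between 109930 and 204860 CPM in females and between 118999 and 194091 CPM in males. In whole muscle, fewer fibres of a type cannot be told apart from less RNA per fibre.

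Glycolysis splits glucose into pyruvate in the cytosol and yields ATP without oxygen. Gpi1 isomerises glucose 6-phosphate, Pfkm is the muscle subunit of phosphofructokinase, the committed step, and Aldoa cleaves the resulting hexose. Tpi1 interconverts the triose phosphates and Gapdh oxidises glyceraldehyde 3-phosphate, the step that reduces NAD. Pgam2 and Eno3 are the muscle isozymes of phosphoglycerate mutase and enolase, and Pkm makes pyruvate. Ldha and Ldhb are the subunits of lactate dehydrogenase: Ldha prevails in fast glycolytic fibres and Ldhb in slow fibres and heart. Fast type 2B fibres, which depend most on glycolysis, express the myosin heavy chain Myh4, and slow type 1 fibres express Myh7.

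Gapdh is described first, because its coding sequence also occurs in other genes of the table. Over all libraries the count deposited for Gapdh (chr6:125161715-125166467, GRCm38, minus strand) ranged 15.3-fold, from 569.01 to 8706 CPM with a median of 4158 CPM. No other member ranged so widely, and the coefficient of variation was 39.3% for Gapdh against 11.1% to 25% for the other 9. The values formed 3 peaks: 5.06% of libraries lay between 569.01 and 1183 CPM, 34.2% between 1365 and 3390 CPM, and 60.8% between 3417 and 8706 CPM. No library lay between the lowest and the middle range, from 1183 to 1365 CPM, whereas the middle and the highest nearly touched. Both sexes were present in each peak, with 13 females and 11 males in the lowest. The table also holds 83 genes whose sequence matches the Gapdh transcript at 95% identity or more, of which 82 are annotated as pseudogenes, and together these near copies took 4529 ± 1791 CPM (SD, all libraries), more than Gapdh itself at 4019 ± 1581 CPM.

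The counts of the copies lay in few of them. Gm7336 on chromosome 7 held 2466 ± 2250 CPM, Gm13394 on chromosome 2 held 1241 ± 1116 CPM, and Gm12671, Gm10359 and Gm3272 held 322.3 ± 434.2, 304.5 ± 403.8 and 121.8 ± 253.98 CPM (SD, all libraries). These 5 copies took 98.4% of the counts of the 83, and 55 copies had a mean under 1 CPM. Gm7336, Gm12671 and Gm10359 carry the whole Gapdh coding sequence of 999 bases without a difference, and Gm13394 carries it with 1. Every one of the 900 stretches of 100 bases, the length of a read, in the Gapdh coding sequence occurs identically in at least 1 copy. The stretch from coding base 51 to 150 is shown for Gapdh, for the most abundant copy and for Gm3272, from the GENCODE M21 transcripts (GRCm38). Capitals mark the 2 positions at which Gm3272 and Gapdh differ in it, and Gm7336 is printed in lower case because it equals Gapdh throughout.
Gapdh: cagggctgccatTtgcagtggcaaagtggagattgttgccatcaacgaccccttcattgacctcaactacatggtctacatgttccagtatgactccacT
Gm7336: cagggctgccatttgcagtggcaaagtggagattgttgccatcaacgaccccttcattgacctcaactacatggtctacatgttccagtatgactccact
Gm3272: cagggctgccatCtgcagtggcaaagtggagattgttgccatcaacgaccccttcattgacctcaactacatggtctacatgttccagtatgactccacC

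The summed counts of the copies moved against those of Gapdh. Gapdh and its summed copies had Pearson r = -0.66 and Spearman rho = -0.69 over all libraries, on transformed values after sex and generation were removed (permutation test, 2-sided, p = 1e-05, the smallest that 100000 permutations can give). Within the library blocks r lay between -0.77 and -0.61. Reads that match both are shared out between Gapdh and its copies in the expected counts, so a negative r is in part built in. Its p-value therefore does not show that the genes themselves changed in opposite directions, which was not tested. The single copies differed in this. Gm7336 had r = -0.58 with Gapdh (rho = -0.78, permutation test adjusted over the 5 copies and their sum, p = 2e-05). Gm13394 and Gm3272 went the other way, with r = 0.27 (adjusted p = 2e-05, between 0.07 and 0.45 within blocks) and r = 0.20 (adjusted p = 7.5e-05). Gm12671 and Gm10359 had r = -0.10 each (rho = -0.03, adjusted p = 0.0334), with either sign within blocks. Gapdh took between 7.77% and 97.6% of the counts of Gapdh and its copies, with a median of 55.4%, and the copies exceeded it in 41.98% of libraries. When the counts were summed, the level was 8548 ± 1260 CPM (SD, all libraries), ranged 2.33-fold and had a coefficient of variation of 14.7%, within the range of the other members. Results for Gapdh are therefore given as deposited and, as an alternative added after the data had been seen, with its near copies.

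**Figure D1:**
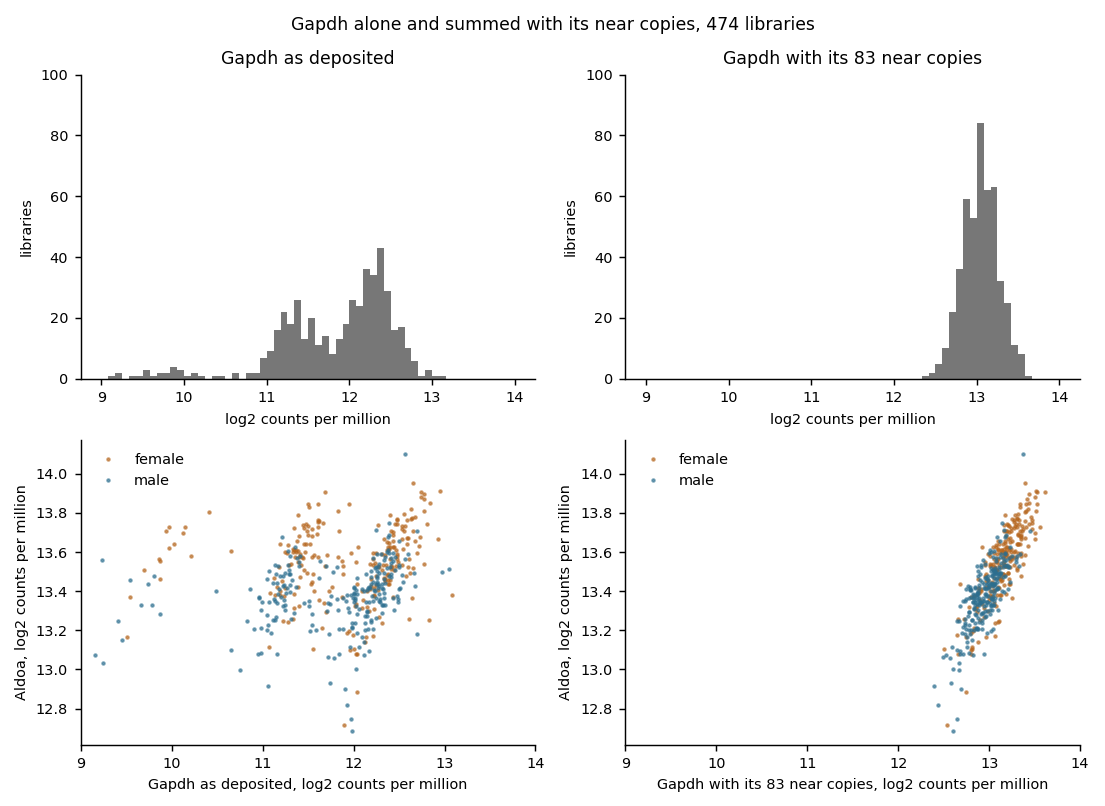
Histograms of log2 CPM over all libraries (upper panels) and log2 CPM of Aldoa against them (lower panels, 1 point per library, coloured by sex), for Gapdh as deposited on the left and for Gapdh summed with its 83 near copies on the right. The deposited values spread over 3 peaks from 569.01 to 8706 CPM, and the sums form a single band from 5374 to 12499 CPM that rises with Aldoa.

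The other members had few near copies or none. Ldhb, Pkm and Gpi1 have 1 near copy each in the table, with mean levels of 0.0176, 0.529 and 0.275 CPM, and the remaining 6 have none. Parts of Pfkm, Aldoa, Tpi1 and Gapdh overlap a gene on the opposite strand (Senp1, Fam57b, Spsb2 and Iffo1), and Pfkm also overlaps Gm26513 on its own strand. Use of strand is not stated, and a contribution of these genes to the counts was not tested.

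The 10 genes together held 2.95% ± 0.355 of all counts (SD, all libraries), between 1.86% and 4.06% of a library. Per kilobase of transcript, Aldoa was the highest at 7513 ± 1040 CPM, followed by Gapdh with its near copies at 6020 ± 887.1 CPM, over which Aldoa was higher in all libraries but 1. Gapdh as deposited stood at 2830 ± 1113 and Eno3 at 2323 ± 321.96 CPM per kilobase, an order that held in 63.5% of libraries. Eno3 exceeded Pgam2, at 1128 ± 177.996 CPM per kilobase, in every library. Ldha (1064 ± 150.8) and Pfkm (1057 ± 117.4) could not be ordered, with Ldha the higher in 50.8% of libraries, and Pkm (932.1 ± 117.6) and Tpi1 (885.8 ± 107.9) overlapped, with Pkm the higher in 70.7%. Gpi1 was at 259.8 ± 29.6 and Ldhb at 126.3 ± 31.6 CPM per kilobase, and Gpi1 was the higher in all libraries but 1. The lactate dehydrogenase subunit of slow fibres was thus the least abundant member, and its ratio to Ldha ranged from 0.0232 to 0.267.

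Within each family the muscle isozyme prevailed. The median ratio of Eno3 to Eno1, the enolase of most tissues, was 53.8 in females and 46.3 in males, and that of Pgam2 to Pgam1 was 53 and 47.9. Pfkm stood at a median of 329.3 times Pfkl, the liver subunit, in females and 357.1 times in males. These ratios use CPM without length, so they compare counts and not transcripts. Of 7 isozyme ratios compared between the sexes, 6 differed by a 2-sided permutation test adjusted over the 7. The log2 ratio of Eno3 to Eno1 was lower in males by 0.19 (5.55 ± 0.26 against 5.73 ± 0.35, SD, adjusted p = 2.33e-05), and that of Pfkm to Pfkl was higher by 0.25 (8.49 ± 0.38 against 8.24 ± 0.62, adjusted p = 2.33e-05). Each passed in 3 of the 5 library blocks. For Pfkm to Pfkl the medians lay closer together than the means. Pfkl was 10.8 ± 5.68 CPM in females and 8.67 ± 2.23 CPM in males (SD), so its spread was wider in females.

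Whether males and females differed was tested with edgeR's quasi-likelihood test with generation as covariate and Benjamini-Hochberg adjustment over the 18823 genes that passed a filter on low counts, which all 10 members passed. At an adjusted p under 0.05, 6 members were called: Gpi1 and Tpi1 were higher in males, and Aldoa, Eno3, Ldha and Ldhb lower. Over all genes tested, 24.4% were called higher and 30.6% lower, so the count of members was close to the background. The median difference of the members was -0.071 on the log2 scale, male minus female, against -0.014 over all genes. As deposited, no called member differed by more than 1.13-fold, and the sexes overlapped widely for every gene.

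Aldoa (chr7:126795234-126800751, minus strand) was between 6716 and 15842 CPM in females, with a median of 12120, and between 6593 and 17571 CPM in males, with a median of 10707. Male values lay lower as a body although the ranges were nearly the same. The means were 12031 ± 1560 CPM in females and 10685 ± 1271 CPM in males, with the SD over the libraries of each sex. On the log2 scale this was -0.17 ± 0.017 (SE, edgeR adjusted p = 6.65e-21). It was called in each of the 5 generations and each of the 5 library blocks, with values from -0.22 to -0.12 across generations.

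Eno3 (chr11:70657202-70662513, plus strand) followed Aldoa closely. It ranged from 2263 to 5213 CPM in females (median 3854) and from 2257 to 4421 CPM in males (median 3450). The log2 difference was -0.15 ± 0.017 (SE, edgeR adjusted p = 3.41e-17), again called in all 5 generations and all 5 blocks.

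Ldha (chr7:46841475-46855627, plus strand) lay between 1110 and 3101 CPM in females (median 1946) and between 1158 and 2625 CPM in males (median 1793), a log2 difference of -0.12 ± 0.018 (SE, edgeR adjusted p = 1.32e-09). The difference was negative in all 5 blocks and passed the test in 4. Ldhb (chr6:142490249-142507957, minus strand) lay between 56.1 and 358.3 CPM in females (median 168.9) and between 75.6 and 301.8 CPM in males (median 152.9). Its difference of -0.15 ± 0.032 (SE, edgeR adjusted p = 7.67e-06) passed in 2 blocks and 2 generations. With Myh4 and Myh7 as covariates the difference for Ldhb was 0.036 (edgeR adjusted p = 0.375), and that for Ldha was -0.15 (adjusted p = 6.5e-13). Both subunits were lower in males by similar amounts, and their ratio, with a median of 0.0865 in females and 0.0836 in males, gave no call (permutation test, 2-sided, adjusted p = 0.402). Within blocks the log2 difference of the ratio ran from -0.18 to 0.11, and it passed in 1, block 1 (-0.18).

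Gpi1 (chr7:34201330-34230336, minus strand) ran the other way. It was between 461.9 and 967.6 CPM in females (median 723.96) and between 555.6 and 999.9 CPM in males (median 774.2), a log2 difference of 0.10 ± 0.015 (SE, edgeR adjusted p = 1.22e-09) that passed the test in 4 generations and 3 blocks. Tpi1 (chr6:124810586-124814296, minus strand) had means of 1396 ± 185.8 CPM in females and 1451 ± 155.97 CPM in males (SD), which is 0.056 ± 0.016 on the log2 scale (SE, edgeR adjusted p = 0.00152). The call for Tpi1 was less secure: it passed in 0 of the 5 blocks, and its value was 0.026 without TMM scaling and 0.033 with the myosins as covariates, neither of which passed.

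Pfkm (chr15:98092589-98132451, plus strand), Pkm (chr9:59656368-59679375, plus strand) and Pgam2 (chr11:5801640-5803733, minus strand) gave no call, with log2 differences of 0.015 ± 0.015, -0.026 ± 0.017 and -0.015 ± 0.021 (SE). Gapdh as deposited was at -0.12 ± 0.059 (SE, edgeR adjusted p = 0.0662). It lay between -0.36 and -0.016 across generations and passed in 1, generation 23 (-0.36). With Myh4 and Myh7 as covariates Pkm was called at -0.059 (edgeR adjusted p = 0.00254) and Gapdh as deposited at -0.20 (adjusted p = 0.011). Gapdh with its near copies was between 5817 and 12499 CPM in females (median 9186) and between 5374 and 11204 CPM in males (median 7930), and its difference of -0.20 ± 0.017 (SE, edgeR adjusted p = 1.01e-26) was called in all 5 generations and all 5 blocks. With the sum, 7 members were called, 2 higher and 5 lower. The members and the Gapdh copies together held 3.59% ± 0.37 of counts in females and 3.21% ± 0.309 in males (SD).

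**Figure D2:**
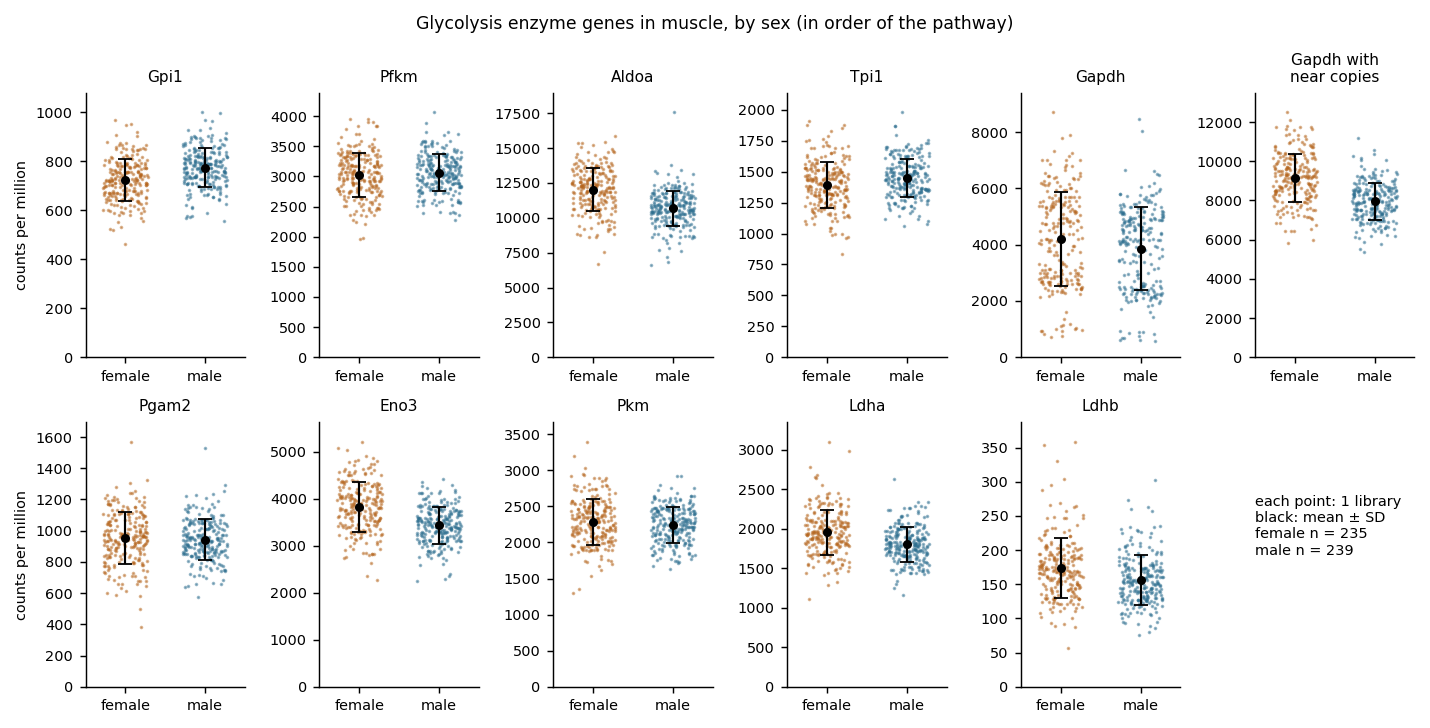
CPM of each member in every library, females on the left and males on the right of each panel, in the order of the pathway, with the mean and SD in black; each vertical axis starts at 0. Aldoa, Eno3, Ldha and Gapdh with its near copies lie lower in males and Gpi1 higher, with wide overlap in every panel.

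**Figure D3:**
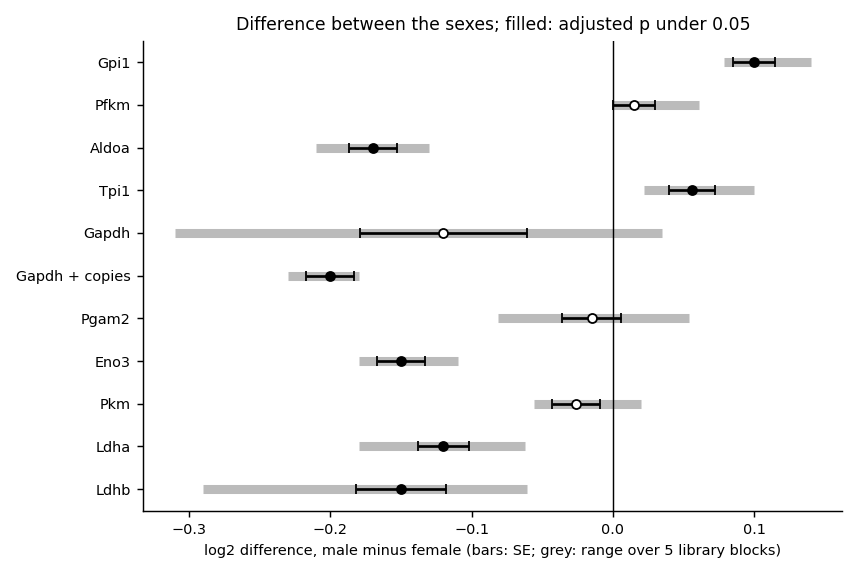
Log2 difference, male minus female, of each member with its SE, filled where the edgeR adjusted p was under 0.05; grey bars span the values within the 5 library blocks. Aldoa, Eno3 and Gapdh with its near copies stay below 0 in every block, and Gpi1 stays above 0.

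The split of calls depended on scaling. Without TMM factors, 30.8% of all called genes were higher in males against 44.3% with them, the median over all genes moved from -0.014 to -0.046, and the members called were 1 higher and 6 lower: Pkm (-0.055) and Gapdh were added and Tpi1 was lost. The directions of Aldoa, Eno3, Ldha, Ldhb and Gpi1 were the same under both.

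Fibre genes moved with sex beside the members. Myh7 was 1508 ± 516.9 CPM in females and 981.2 ± 349.99 CPM in males (log2 difference -0.62 ± 0.045 SE, edgeR adjusted p = 2.61e-35), and all 9 slow-fibre markers were called lower in males. The slow-fibre markers summed to between 633.6 and 10003 CPM in females (median 3714) and between 895.2 and 8289 CPM in males (median 2545). Myh4 was slightly higher in males at 70626 ± 8647 CPM against 68119 ± 9240 CPM (0.053 ± 0.017, adjusted p = 0.00565), whereas Myh2, the myosin of type 2A fibres, was lower (-0.10 ± 0.032, adjusted p = 0.00398) and Myh1 gave no call (-0.058 ± 0.028). Of the 12 fast-fibre markers 6 were called higher in males and 4 lower. The adipocyte markers summed to a median of 247.3 CPM in females and 216.99 CPM in males, the macrophage markers to 106.3 and 103.1 CPM and the endothelial markers to 234.5 and 243.2 CPM. The erythroid markers summed to medians of 128.1 and 156.3 CPM, the Schwann cell markers to 121.2 and 111.7, the fibro-adipogenic markers to 826.8 and 835.9 and the satellite cell markers to 2.92 and 3.36. With scores of the marker lists of cells other than muscle fibres as covariates the same 6 members were called, with Aldoa at -0.18 and Ldhb at -0.23.

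Between generations no member was called by edgeR's quasi-likelihood test with sex as covariate, where 7.56% of all genes were called. The 1 member with an unadjusted p under 0.05 was Aldoa (p = 0.0472, adjusted p = 0.244), and DESeq2 and limma called 0 members as well. Aldoa, for example, had group means from 10444 CPM in males of generation 23 to 12439 CPM in females of generation 17. The fitted range over generations had a median of 0.063 on the log2 scale for the members against 0.11 for all genes. The difference between the sexes did not vary detectably with generation: edgeR's test of the interaction called 0 members and 0.531% of all genes, 0 members had an unadjusted p under 0.05, and limma called 0.

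Library blocks did differ. With sex and generation as covariates 9 of 10 members were called between blocks, all except Gapdh, against 47.4% of all genes. The fitted range was 0.20 on the log2 scale for Eno3 (edgeR adjusted p = 1.76e-13) and 0.18 for Aldoa (4.74e-11), as large as their differences between the sexes, and 0.075 for Gpi1 (0.03). Block took 13.2% of the variance of Eno3 and 12.2% of that of Aldoa, where sex took 13.95% and 17.3%.

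The spread between animals was compared between the sexes with limma, on the absolute deviation of each transformed value from its group's median. No member was called, against 5.37% of all genes, although all 10 estimates were negative, male minus female, and 5 members had an unadjusted p under 0.05. The lowest adjusted p was that of Pgam2 (-0.039 ± 0.014 SE, limma adjusted p = 0.0789), which passed when deviations were taken from the group mean (-0.041).

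Pairwise correlation over animals was computed on the deposited transformed values, the variance stabilising transform (VST) whose unit is close to log2, after sex and generation had been removed. Of the 45 pairs, 44 passed a 2-sided permutation test after adjustment over the 45 pairs, 36 with positive and 8 with negative r, and within the library blocks between 36 and 42 passed. The points are the animals, whose values share the scaling. With log2 CPM on the total count alone in place of VST 40 of the 45 pairs passed, and with library block or the log2 total count as a covariate 44 did. For comparison, the median r over all pairs of the 18823 genes was 0, and 0.355% of those pairs had r of 0.5 or more.

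Among the 8 members other than Gapdh and Ldhb, all 28 pairs were positive, with r from 0.39 to 0.83 and a median of 0.66. The highest was Eno3 with Tpi1, at r = 0.83 and rho = 0.79 (permutation adjusted p = 1.32e-05); it was 0.86 in females and 0.78 in males, lay between 0.76 and 0.86 within blocks, and was 0.82 without the 2 libraries farthest from the median. Tpi1 also had r = 0.75 with Pkm and with Ldha, and Aldoa had r = 0.74 with Eno3 and 0.73 with Gpi1. Pgam2 was the least tied of the 8, with r = 0.39 to Pfkm and to Gpi1 and 0.64 to Tpi1. Removing Myh4 and Myh7 as well left r between 0.30 and 0.79 in these 28 pairs, with a median of 0.57, and all 28 passed.

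Gapdh as deposited had r from 0.12 to 0.23 with the 8. Inside its 3 ranges the median r with the 8 was 0.52 in the lowest (n = 24), 0.23 in the middle and 0.50 in the highest, so the pooled value was lower than those in the lowest and highest ranges. With its near copies r rose to between 0.49 and 0.76, the highest being that with Aldoa (rho = 0.74, between 0.69 and 0.84 within blocks).

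Ldhb stood apart. All 9 of its r values were negative, from -0.23 with Ldha to -0.05 with Pgam2, and 8 passed. They were weak and did not hold in every block: in block 1 Ldhb had positive r with all 9 other members, for instance 0.20 with Aldoa. With Myh4 and Myh7 removed, 1 of the 9 pairs passed, that of Ldhb and Gpi1, and its sign was then positive (r = 0.11).

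**Figure D4:**
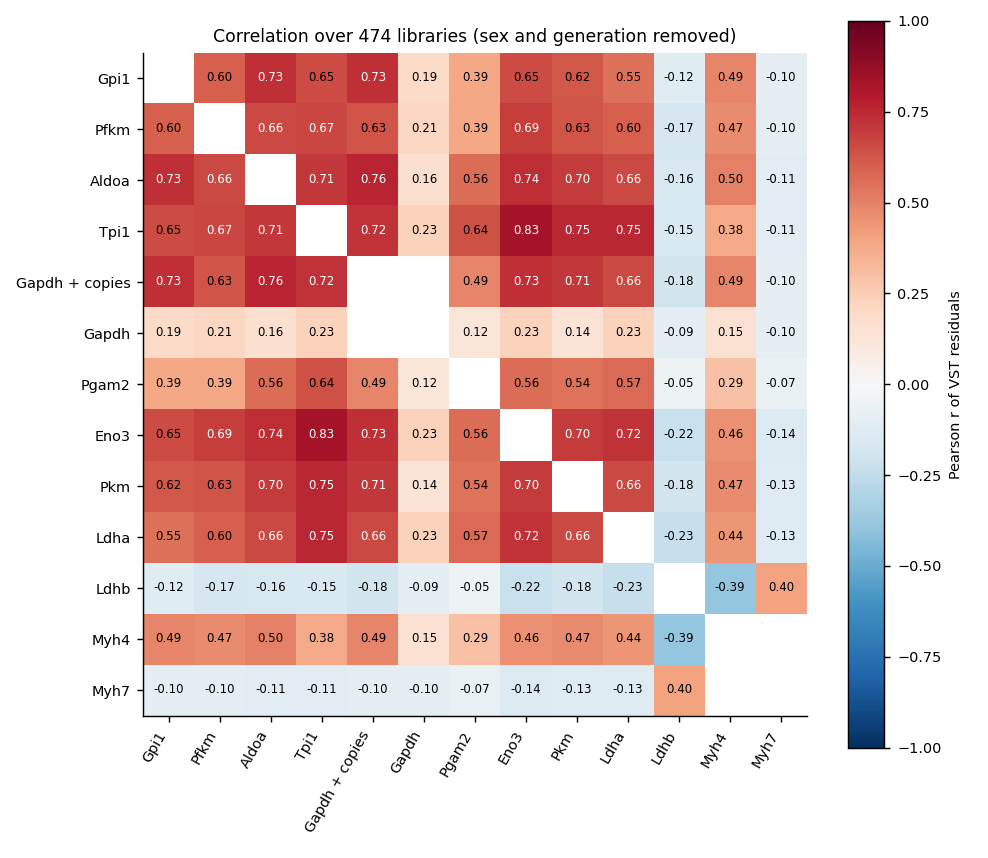
Pearson r of VST residuals, after sex and generation, for each pair of members and for each member with Myh4 and Myh7 over all libraries, red for positive and blue for negative. The 8 members other than Gapdh and Ldhb form a block from 0.39 to 0.83, Gapdh joins it only when its near copies are added, and Ldhb is weakly negative with the members and positive with Myh7 (0.40).

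How the members followed the fibre myosins was measured as a slope in limma, in VST units per VST unit of the myosin, with sex and generation as covariates. All 10 members were called with Myh4, 9 with a positive slope and Ldhb with a negative one, where 17.9% of the 18822 genes tested had a called positive and 23.6% a called negative slope. The median slope of the members was 0.42, against -0.02 over all genes.

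Aldoa had the slope 0.47 ± 0.038 (SE, limma adjusted p = 2.45e-28), with r = 0.50 to Myh4. Pkm followed at 0.45 ± 0.039, Ldha at 0.44 ± 0.041, Eno3 at 0.43 ± 0.039, Gpi1 at 0.41 ± 0.034, Pfkm at 0.39 ± 0.034, Pgam2 at 0.36 ± 0.054 and Tpi1 at 0.34 ± 0.039. Neighbours in this order differed by less than their SE. Gapdh as deposited was at 0.56 ± 0.17 (adjusted p = 0.00383), but it passed in 0 of the 5 blocks, with values from 0.22 to 0.89, and its slope was 0.26 in females alone, where it did not pass, and 0.94 in males alone. With its near copies Gapdh was at 0.52 ± 0.043 (adjusted p = 4.11e-27). Ldhb was at -0.70 ± 0.076 (adjusted p = 8.32e-17, r = -0.39), negative in all 5 blocks. In block 1 only 2 members passed the test with Myh4, and in the other blocks 8 or 9 did.

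With Myh7 the picture differed. Only Ldhb had a called positive slope, 0.28 ± 0.03 (limma adjusted p = 1.2e-16, r = 0.40), and Eno3 had a called negative one, -0.051 ± 0.017 (adjusted p = 0.0453), where 3.42% of genes were called positive and 2.62% negative. The call for Eno3 was lost without the 2 libraries farthest from the median of Myh7 (-0.045), with Myh4 in the same model (-0.024) and with log2 CPM in place of VST (-0.035). The slopes of the other 8 lay between -0.15 and -0.031 and did not pass, although 9 members in all had an unadjusted p under 0.05. On the scale of r, 19 of the 20 pairs of a member and a myosin passed the permutation test adjusted over the 20 pairs, Pgam2 with Myh7 being the exception (r = -0.07, adjusted p = 0.148), but r with Myh7 was between -0.14 and -0.07 for all members other than Ldhb. The count was 11 by Spearman rho and in females, and 12 without the 2 libraries farthest from the median of Myh7. With log2 CPM in place of VST it was 13 with TMM factors and 11 on the total count alone. With both myosins in the model Ldhb kept its slope on each, -0.60 on Myh4 and 0.24 on Myh7. By VST, called slopes over all genes were positive in 43.1% of cases for Myh4 and 56.6% for Myh7. With log2 CPM and TMM factors in place of VST these were 43.5% and 58.8%, and on the total count alone 27.8% and 87.1%. The signs of the called members were the same throughout. Gapdh (0.45 on Myh4) lost its call on the total count alone, and Eno3 lost its call on Myh7 under both (-0.027 on the total count alone).

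The slope on Myh4 was steeper in females than in males for 8 of the members, such as 0.55 against 0.29 for Eno3 (difference -0.26 ± 0.076 SE, limma adjusted p = 0.0887) and 0.50 against 0.27 for Pfkm (-0.23 ± 0.067, adjusted p = 0.085). This difference, a comparison added after the data had been seen, was called for 0 members and for 0.128% of all genes. An unadjusted p under 0.05 was reached by 6 members, among them Gapdh as deposited, which went the other way (0.77 ± 0.34 SE, limma p = 0.023). For Myh7 it was called for 0 members, with 1 at an unadjusted p under 0.05, and for 0.0903% of genes.

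**Figure D5:**
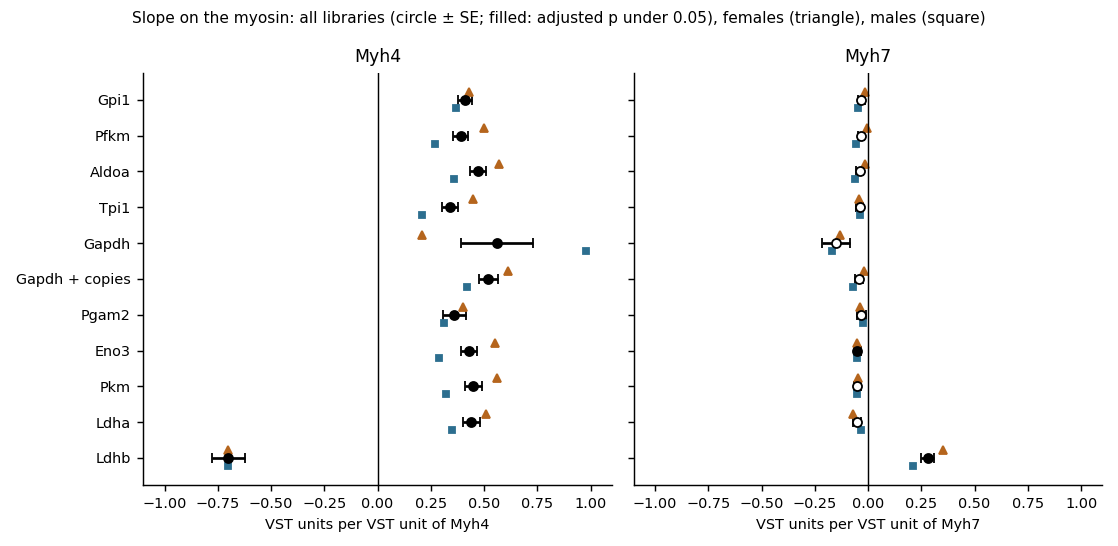
Slope of each member on Myh4 (left) and Myh7 (right) in VST units per VST unit, with SE, filled where the limma adjusted p was under 0.05; triangles are the slopes of females and squares those of males, from 1 model with the sexes allowed to differ. Every member except Ldhb has a positive slope on Myh4, and on Myh7 only Ldhb is clearly above 0.

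Outside the members, likeness was measured as r over all libraries. The highest r to the mean of the 10 members was that of Pygm, muscle glycogen phosphorylase, at 0.73, followed by Rtn2 (0.72), Rpl3l (0.72), a ribosomal protein of striated muscle, and Myoz1 (0.70), a Z-disc protein of fast fibres. Psmb6, Ppp1ca, Gpd1, Ak1, Tmem38a and Csnk2b lay between 0.66 and 0.70. The lowest were Tasor (-0.61), Ptbp3, Mtpn, Sh3bgrl and Fam76b, the last at -0.58. Ldhb had other partners, Idh2 (0.75) and Mdh1 (0.69), a mitochondrial isocitrate dehydrogenase and the cytosolic malate dehydrogenase. Gapdh as deposited was most like Vamp1 (0.46) and Mlf2 (0.42), genes that lie 0.0667 and 0.23 Mb from it on chromosome 6, whereas with its near copies it was most like Pygm (0.65) and Myoz1 (0.62).

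The counts of the lists that follow stand beside 24.4% of all genes called higher and 30.6% called lower in males, and the lists were not tested as groups. Of the other glycolytic enzymes in the list drawn up for comparison, 14 of 20 were tested between the sexes, with 6 higher and 2 lower in males, and with Myh4, where 1 had a called positive slope and 6 a negative one, against 17.9% and 23.6% of all genes. Aldoc, the brain aldolase, was higher in males by 0.40 ± 0.13 on the log2 scale (SE, edgeR adjusted p = 0.00522) at a mean of about 1 CPM, and Pfkp, with r = -0.23 to the mean of the members, was lower by 0.11 on the log2 scale. Pgk1, the phosphoglycerate kinase between Gapdh and Pgam2, has 2 near copies that held 273.9 CPM against its own 436.7 CPM, and how reads were split between them was not tested.

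Around the pathway, Fbp2, the muscle fructose bisphosphatase that opposes Pfkm, was 53.01 ± 17.4 CPM in females and 39.1 ± 14.3 CPM in males (log2 difference -0.43 ± 0.046 SE, edgeR adjusted p = 3.05e-18), with r = 0.41 to the mean of the members. It was 1 of 4 genes called, 3 higher and 1 lower, among 7 that make, degrade or act with fructose 2,6-bisphosphate. Of the 5 transporters of glucose and lactate, 2 were called higher and 3 lower. Slc16a3, the lactate exporter of fast fibres, had r = 0.65 to the members, and Bsg, its chaperone, had r = 0.53 and was lower in males by 0.20 on the log2 scale (390.2 ± 53.9 against 339.7 ± 43.7 CPM, adjusted p = 7.49e-25). Of the 6 genes of the shuttles that reoxidise cytosolic NADH, 1 was higher and 4 were lower. Gpd2, the mitochondrial glycerol phosphate dehydrogenase, showed -0.34 ± 0.021 (250.6 ± 41.04 against 197.7 ± 28.7 CPM, adjusted p = 3.34e-46), and its cytosolic partner Gpd1 had r = 0.67 to the members and gave no call (-0.02 ± 0.023).

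Of 13 genes of pyruvate entry into mitochondria, 7 were called higher in males, 2 lower and 4 not at all, with a median log2 difference of 0.06. On Myh4, 8 of the 13 had a called negative slope, where 23.6% of all genes did. Pdk2, a kinase that switches pyruvate dehydrogenase off, had r = 0.56 to the members and was higher in males by 0.06 on the log2 scale, while Pdp2, a phosphatase that switches it on, had r = -0.24 and a log2 difference of -0.39 ± 0.047 (SE, adjusted p = 5.87e-15). Dld, a subunit of the complex, had r = -0.25. Among 9 regulators of muscle glycolytic genes 5 were higher and 1 lower in males. Hif1a, the oxygen-sensitive subunit of a factor known for inducing glycolytic genes, had r = -0.47 to the members over animals and did not pass between the sexes (0.037 ± 0.023, adjusted p = 0.166).

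Promoter sequence is shown for the pair of members with the highest r, Eno3 and Tpi1, and for both lactate dehydrogenase subunits, which had opposite slopes on Myh4. Each is the 250 bases before the RefSeq start (GRCm38.p6), on the strand of the gene, and capitals mark the motifs searched on both strands.
Eno3, chr11:70656926-70657175, plus strand: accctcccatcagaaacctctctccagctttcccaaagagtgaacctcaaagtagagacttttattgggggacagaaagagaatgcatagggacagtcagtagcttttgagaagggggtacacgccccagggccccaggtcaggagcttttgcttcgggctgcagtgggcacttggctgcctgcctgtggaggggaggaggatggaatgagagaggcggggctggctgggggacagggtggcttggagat
Tpi1, chr6:124814159-124814408, minus strand: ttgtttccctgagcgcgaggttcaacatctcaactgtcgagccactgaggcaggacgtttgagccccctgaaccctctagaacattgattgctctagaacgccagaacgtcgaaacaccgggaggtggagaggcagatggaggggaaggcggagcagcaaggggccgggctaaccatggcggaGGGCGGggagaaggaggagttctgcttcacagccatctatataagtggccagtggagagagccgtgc
Ldha, chr7:46845554-46845803, plus strand: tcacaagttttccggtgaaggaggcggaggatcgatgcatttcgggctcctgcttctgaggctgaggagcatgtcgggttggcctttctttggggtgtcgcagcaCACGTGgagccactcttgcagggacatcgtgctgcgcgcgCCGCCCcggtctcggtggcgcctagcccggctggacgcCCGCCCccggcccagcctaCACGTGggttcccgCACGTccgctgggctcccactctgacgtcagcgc
Ldhb, chr6:142507958-142508207, minus strand: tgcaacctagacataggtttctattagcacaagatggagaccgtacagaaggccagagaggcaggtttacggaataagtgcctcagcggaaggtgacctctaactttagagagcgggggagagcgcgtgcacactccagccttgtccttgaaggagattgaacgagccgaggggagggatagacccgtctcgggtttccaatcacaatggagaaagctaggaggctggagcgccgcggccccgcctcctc

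All 10 members had a promoter among 27025 in the table. The letters ACGTG, a form of the core of the hypoxia response element, were in 16.6% of all promoters. They were found in Ldha, where they occur 5 times counting both strands of CACGTG, and in Pfkm. The other form, GCGTG, was not searched, and it occurs for instance in the Ldhb stretch above. GGGCGG, the GC box, was in Ldha, Pkm, Tpi1 and Gpi1 (32.9% of all), the E-box CAGCTG in Pkm, Pgam2 and Gpi1 (12.8%), and the MEF2 motif in Pgam2 alone (3.01%). TATAAA (12.97% of all), TCAGGTT (3.49%) and AAGGTCA (4.05%) were in none. Eno3 and Tpi1, the most correlated pair, had no searched motif in common.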

How the data were processed

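The members and gene lists were chosen with earlier results of these data known. Per the study's methods, both mates of each pair were aligned as single reads to a transcriptome of the 8 founder strains, and EMASE, run by GBRS, gave an expected count per gene. The deposited expected counts are unnormalised, so a fragment may add up to 2, and 68.6% of the values were whole. The authors also deposited a score, the DESeq2 variance stabilising transform (VST), and describe filtering genes with few reads and regressing out batch. Versions and use of strand are not given in the sources used here. GRCm38 comes from the submitters' processing notes, and 99.5% of gene starts equalled GENCODE M21.

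Groups came from sample titles (474 libraries, 235 female and 239 male), 5 libraries whose sex-linked RNA went against the label were kept, and 0 value columns were left unused. Columns DO048 and DO308, and DO309 and DO310, stand in exchanged order, and each was used under its own name. After rounding, expected counts went into edgeR 4.0.16 under R 4.3.3 (quasi-likelihood F-test, trended dispersion, TMM factors 0.871 to 1.29), limma 3.58.1 on VST, and DESeq2 1.42.0 as an alternative. The filterByExpr function (minimum count 10) kept 18823 genes and removed 1789. P-values were adjusted by Benjamini-Hochberg over all genes, at 0.05. The SE printed with an edgeR difference was derived from the test, as the absolute difference divided by the square root of its F. The labels name no litter, cage or preparation. The study used wave as a covariate in its tests on DO mice and kinship as a random effect in mapping expression to genotype. Wave is not in the labels, and neither wave nor kinship was modelled here. P-values measure the spread between animals taken as independent, without allowance for relatedness or shared preparation.

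Correlations used VST residuals after sex and generation and 100000 permutations, and ratios of CPM (prior count 2) used 100000 permutations of sex within generation, computed with scipy 1.17.1, pandas 2.3.3 and numpy 2.4.6 under Python 3.11.15, and plots were drawn with matplotlib 3.10.9. Near copies were found with blastn 2.17.0 (identity of at least 95%, 100 aligned bases, 50% of the copy), and their counts were summed with Gapdh. The VST of the sum was read from each library's own curve of VST against count, which for Eno3 returned the deposited VST to within 0.297. This largest error exceeds the SD of the log2 sum (0.21), and the curve was not checked at the higher level of the sum. The r values and myosin slopes of Gapdh with its near copies rest on this reading. Scripts were tested on simulated data. Genes with values in the text were the 10 members, the 4 adult limb myosins where a result turned on them, genes of the pathway lists that differed at least 1.25-fold between the sexes or had 1 of the 5 highest or lowest r to the members, and the genes most like the members. A gene of these lists is not reported here. Alternatives were other scaling, filters, tools and covariates, each sex alone, each generation and each library block.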

Additional observations from a re-analysis of the deposited data

How the results depend on the processing

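No paired analysis was possible because each animal number occurs once and no number is shared between groups. The number of members called between the sexes was 6, and 6 or 7 under the other scalings, filters, tools and covariates tried. With the myosins as covariates Ldhb and Tpi1 were lost and Pkm (-0.059) and Gapdh (-0.2) were gained. The number was 3 in generation 18, in generation 21 and in library block 3, where fewer libraries were tested. With Myh4, 2 members passed in library block 1, against 10 over all libraries. With Myh7, 2 members passed over all libraries. The number was 1 with log2 CPM in place of VST, with or without TMM factors, with the marker scores as covariates, with Myh4 in the same model, without the 2 libraries farthest from the median of Myh7, in females, in males and in block 5. It was 0 in blocks 1, 2 and 4, 4 with block as a covariate, and 7 in block 3, and the cause was not tested. The spread gave 1 member with deviations from the group mean, against 0. Of 20 pairs of a member and a myosin 19 passed. This was 11 by Spearman rho, in females and in block 5, 9 in block 1, 10 in block 2, and 12 without the 2 libraries farthest from the median of Myh7. With log2 CPM in place of VST it was 13 with TMM factors and 11 on the total count alone. With the near copies of Gapdh it was 11 by rho, 12 in females, and 10, 11 and 11 in blocks 1, 2 and 5. Of the 7 isozyme ratios, 6 differed between the sexes, and 2, 0, 3 and 1 did so in blocks 1, 2, 3 and 5.

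Small values changed sign. For the sexes, Pfkm was at -0.014 without TMM factors, -0.0031 with the myosins as covariates, -0.016 in generation 17, and -0.00028 and -0.0002 in blocks 3 and 5. Ldhb was at 0.036 with the myosins, Pkm at 0.02 in block 1 and Gapdh at 0.035 in block 4. Pgam2 was at 0.048 and 0.052 in generations 18 and 19 and at 0.033 and 0.054 in blocks 1 and 5. The slope on Myh7 was positive in block 5 for Pfkm (0.0081), Aldoa (0.0028), Pkm (0.0071) and Gpi1 (0.049), in block 1 for Ldha (0.02), Gapdh (0.15) and Pgam2 (0.019), and in block 2 for Pgam2 (0.01). In r with Myh7, block 5 gave 0.026 for Pfkm, 0.0085 for Aldoa, 0.021 for Pkm and 0.18 for Gpi1, block 1 gave 0.048 for Ldha, 0.11 for Gapdh and 0.031 for Pgam2, and block 2 gave 0.028 for Pgam2. Without removal of sex and generation, r with Myh7 was 0.16 for Aldoa, 0.063 for Ldha and 0.12 for Eno3.

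The negative r of Ldhb turned positive in block 1, at 0.15 with Pfkm, 0.2 with Aldoa, 0.14 with Ldha, 0.16 with Pkm, 0.08 with Eno3, 0.12 with Gapdh (0.13 with its copies), 0.22 with Pgam2, 0.12 with Tpi1 and 0.13 with Gpi1. With both myosins as covariates it was 0.026 with Pfkm, 0.057 with Aldoa, 0.029 with Pkm, 0.036 with Gapdh and its copies, 0.088 with Pgam2, 0.022 with Tpi1 and 0.11 with Gpi1. For Pgam2 it was also 0.032 with log2 CPM on the total count alone in place of VST, 0.041 in males and 0.12 in block 4. The ratio of Ldhb to Ldha was higher in males by 0.012, 0.029 and 0.11 on the log2 scale in blocks 3, 4 and 5, and that of Pfkm to Pfkl was at -0.029 in block 5. No slope on Myh4 changed sign under any alternative, and no pair among the 8 members other than Gapdh and Ldhb did. Depth did not limit the members, whose lowest value was 56.1 CPM. For Gapdh as deposited, reads that its copies also match limit what the value measures.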
